A study of Homo sapiens with 3 samples.

Results

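The addition of OSI906 to IGF1-treated U87Mut cells was followed on 28565 oligonucleotide probes of the 58201 on a human expression array. The members were all non-control probes whose green (Cy3) signal the scanner software marked as well above background on both the IGF1 array and the IGF1+OSI906 array. The value of a probe is its normalized log2 intensity with IGF1+OSI906 minus that with IGF1, so that a value of 1 is a 2-fold higher signal with the inhibitor. A RefSeq name was found for 21130 of the members, which cover 15683 genes, and the brightest member probe stands for a gene.

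U87 is an established human glioblastoma line. U87Mut 5 is a single clone of it, transfected with a GFP-tagged IGF1 receptor in which 3 lysines that take up the SUMO modifier were changed, and the labels give its receptor as non-nuclear. The partner clone, U87WT 5, carries the GFP-tagged receptor without these changes, which the labels give as nuclear. Cells were kept for 24 h in serum-free medium, with 50 nM IGF1, or with 50 nM IGF1 and 0.5 μM OSI906. All groups therefore carry an added IGF1 receptor, and neither the effect of the clone's origin nor that of the added receptor can be told apart from that of the lysine changes. The study's methods place OSI906 1 h before IGF1, while the labels' protocol gives 24 h for the preincubation, and a medium field of the labels gives a higher dose than the 0.5 μM of the sample title and protocol. There was 1 array per condition, U87Mut always in Cy3 and U87WT always in Cy5, and no dye swap. No value below has a replicate error or a p-value, and the array and the condition cannot be told apart. Genes are called higher or lower by size alone. The IGF1 array enters both the difference and the order of the 3 levels. Picking genes by a large difference therefore favours those with the IGF1 array as the lowest or highest of the 3.

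IGF1R is a receptor tyrosine kinase that signals through IRS adaptors to PI3K, AKT and mTOR and through RAS to ERK. Active AKT keeps FOXO transcription factors out of the nucleus, and mTOR raises protein, lipid and nucleotide synthesis. OSI906, known as linsitinib, blocks the kinase of IGF1R and of the closely related insulin receptor. In glioma cells the pathway is known for its part in growth, survival and glucose uptake.

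The labelled cell type was checked on marker genes. Of 10 glioma and mesenchymal markers, 8 were well above background on both arrays, while the glial genes SOX2 and GFAP were not. Among the 8 were VIM, CD44, CHI3L1 and NES, the last dim at 6.78, 6.67 and 6.94 on the 3 arrays. Among neuron markers 3 of 5 were above background, RBFOX3, SNAP25 and the dim SYT1, at differences of 0.255, 0.57 and -0.03. RBFOX3, at 8.78, 9.14 and 9.40, and SNAP25, at 9.26, 8.38 and 8.95, were brighter than NES. Among leukocyte markers 2 of the 6 on the array were above background, and among oligodendrocyte, endothelial and epithelial markers 2 of 5 each. The log2 of the summed glioma and mesenchymal marker signal was 17.2 in serum-free medium, 17.4 with IGF1 and 17.3 with IGF1+OSI906. That of fibroblast markers was 9.17, 8.69 and 9.21, with 3 of 5 above background, and PDGFRA and COL3A1 were not. The fibroblast markers above background were LUM and DCN, at differences of 0.69 and 0.79, which also belong to the matrix genes described further on, and PDGFRB at 0.22. The log2 of the summed leukocyte markers was 9.46, 8.98 and 9.36, carried by CSF1R at a difference of 0.40 and the dim PTPRC at 0.23, while AIF1, CD3E and ITGAM were among those not above background. The part of leukocyte markers in the cytokine values was not tested.

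In Cy3 the upper quartile of brightness was 187, 136 and 157 scanner units in serum-free medium, with IGF1 and with IGF1+OSI906, and 55.6%, 51.5% and 53.8% of probes were well above background. The IGF1 array has a bright patch that shows in both dyes: 572 of its spots were marked as not uniform in either dye, against 5 on the IGF1+OSI906 array. Of the 572, 98 were marked in Cy3, the dye of U87Mut, and 571 in Cy5. The serum-free array had 384 such spots, with 4 marked in Cy3 and 382 in Cy5. The marks on the IGF1 and IGF1+OSI906 arrays touched 311 members, of which 3 were higher and 4 lower by at least 1. The lowest values of all, such as -9.93 for PABIR2 and -7.83 for ZP1, came from such spots, where the raw IGF1 signal was 71885 and 66670 scanner units over a local background of 592 and 540.5. These values are given as marked spots and not as changes of the genes.

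At least 1 higher with OSI906 were 34 members, 0.119% of all, and at least 1 lower were 28, 0.098%. These counts depend on the processing, with 61 and 39 at an offset of 20 in the background correction and 322 and 111 with the signals processed by the scanner software. In simulated data 8 of 50 probes set to a difference of 1 were called, so a change of that size was mostly missed. Without the probes with a marked spot these were 31 and 24, and the lowest value was -2.56, at a probe with no RefSeq name. At a limit of 0.5, 411 probes were higher and 299 lower, 1.44% and 1.05%. By gene, 30 were higher and 18 lower by at least 1, 0.191% and 0.115% of the 15683. The members had a median of 0.0, quartiles of -0.105 and 0.108 and an SD of 0.234. With the members put in 4 equal parts by brightness, the SD grew from 0.104 in the dimmest part to 0.345 in the brightest. The dimmest part held 0 probes past 1 in either direction, and the brightest held 16 higher and 21 lower.

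The spread of the difference between spots can be read from 275 member probes that are printed in several spots, 10 in the median. The difference of a single spot had a pooled SD of 0.0895 around its probe's mean, while the means of these probes had an SD of 0.222. Among the 271 genes whose brightest probe is of this kind, 106, or 39.1%, had a difference beyond 2 SD of their spots, and 5 were higher and 4 lower by at least 0.5. CCL2, a chemokine that attracts monocytes, was higher by 0.82 ± 0.11 (SD, 10 spots), and NFKBIA, the inhibitor that NF-kB induces against itself, by 0.73 ± 0.07 (SD, 10 spots). Outside the rule for named genes and chosen after their values were seen, the G protein subunit gene GNG11 was higher by 0.62 ± 0.09 (SD, 10 spots), and CAMK2N1 and SMIM14 by 0.55 and 0.50. PFDN6, a subunit of the prefoldin chaperone, was at 10.01 in serum-free medium, 10.12 with IGF1 and 8.98 with IGF1+OSI906, a difference of -1.14 ± 0.09 (SD, 10 spots). In U87WT the difference of PFDN6 was -1.56. Also chosen after their values were seen, BAX, which permeabilizes mitochondria in apoptosis, was at -0.68 ± 0.07, the actin regulator VASP at -0.72 ± 0.08 and the glycogen branching enzyme GBE1 at -0.53 ± 0.18 (SD, 10 spots each). BAX was at 12.07, 11.96 and 11.28 and VASP at 10.06, 10.40 and 9.67 on the 3 arrays. MYC was at -0.01 ± 0.05 (SD, 10 spots), GAPDH at -0.01 ± 0.07 (SD, 10 spots) and CCND1 at -0.02 ± 0.09 (SD, 9 spots). These errors cover the spots of the compared arrays. They hold neither a shift shared by all spots of an array nor a second culture.

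Separate probes of a gene give a second measure of error. In 4245 genes with more than 1 member probe, the brightest probe was past 0.5 in 148, and the next brightest lay on the same side of 0 in 117 of these, 79.1%, against 60.6% in all of the 4245. The difference of a single probe varied around its gene with an SD of 0.201.

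Cytokine and chemokine genes stood highest among the gene lists. Of 17 genes of a list of cytokines, chemokines and NF-kB targets, 15 were members, and 6 were higher by at least 0.5 and 0 lower, where 1.93% of all named genes were higher and 1.13% lower by this limit. Their median was 0.43, against 0.006 over all named genes. IL1B, which encodes the inflammatory cytokine interleukin 1 beta, had the highest difference of any gene. Its log2 level was 9.33 in serum-free medium, 8.42 with IGF1 and 10.79 with IGF1+OSI906, a difference of 2.37 or 5.18-fold. The level with the inhibitor was thus the highest of the 3 and that with IGF1 the lowest. CXCL1, a chemokine that attracts neutrophils, was at 8.28, 7.25 and 8.80, higher by 1.55 or 2.93-fold, and its other probe by 0.86. These genes have the IGF1 array as their lowest. LIF, a cytokine of the interleukin 6 family, was at 8.55, 8.22 and 9.10, higher by 0.88, and NFKBIA was at 11.24, 10.98 and 11.71. CCL2 was dim, at 6.90, 6.36 and 7.18, and so was CXCL8, another neutrophil chemokine, at 6.27, 6.07 and 6.70, higher by 0.63. The offset used in the background correction understates the differences of such dim probes. IL6 was at 0.27, CXCL3 at 0.31 and TNFAIP6 at -0.15, short of the limit. CXCL2 was short of it at 0.37 at its brightest probe, while its other probe was at 0.54. CSF3, the granulocyte growth factor, is outside the list and was chosen after its values were seen. It was higher by 1.01, at 8.25, 7.98 and 8.98.

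The promoters of CXCL1 and NFKBIA, genes higher with OSI906, are shown because they hold letters that match an NF-kB motif. They are the 250 bases before the RefSeq start on GRCh38.p14, CXCL1 on the plus strand at chr4:73869143-73869392 and NFKBIA on the minus strand at chr14:35404750-35404999, with each match to GGNNTTTCC, on either strand, in capitals. This motif was chosen after the values were seen.
CXCL1: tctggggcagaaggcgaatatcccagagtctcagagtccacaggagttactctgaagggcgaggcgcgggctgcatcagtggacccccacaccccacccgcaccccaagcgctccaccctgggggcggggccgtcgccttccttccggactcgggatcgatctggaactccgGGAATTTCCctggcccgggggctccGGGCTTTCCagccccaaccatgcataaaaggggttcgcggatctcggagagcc
NFKBIA: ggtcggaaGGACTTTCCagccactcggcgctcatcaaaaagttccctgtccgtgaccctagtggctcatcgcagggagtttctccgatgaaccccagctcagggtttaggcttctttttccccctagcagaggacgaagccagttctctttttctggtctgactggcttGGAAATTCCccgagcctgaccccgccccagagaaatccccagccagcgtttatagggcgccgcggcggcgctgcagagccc
Each stretch holds 2 matches, in CXCL1 beginning 78 and 53 bases before the start and in NFKBIA 242 and 81. In a window from 250 bases before to 50 after the start, 7 of 13 list members with a promoter sequence held the motif, 53.8%, and so did 6.26% of all 27305 promoters. The list was drawn up with known NF-kB targets, so this share does not bear on the inhibitor. The median difference was 0.42 for the members with a match and 0.42 for those without. IL1B was among those without.

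Other genes among the highest were of several kinds. STC2, a secreted glycoprotein induced under cell stress, was at 8.02 in serum-free medium, 7.26 with IGF1 and 8.85 with IGF1+OSI906, higher by 1.59. CHI3L1, a secreted chitinase-like protein much studied in glioblastoma, was at 10.54, 9.15 and 10.59, higher by 1.44 or 2.71-fold. For CHI3L1 the levels without IGF1 and with the inhibitor lay close together, and the IGF1 level lay below both. CCN5, a matricellular protein of the CCN family, was at 10.96, 9.72 and 11.04, higher by 1.32. LXN, an inhibitor of carboxypeptidases, was at 11.63, 10.41 and 11.71, higher by 1.30. These genes shared the order of CHI3L1, with IGF1 the lowest of the 3 arrays, which their choice by this difference favours. RARRES1, named for its induction by retinoids, was at 9.02, 7.93 and 9.30, higher by 1.37. TMEM119, a membrane protein used as a microglia marker, was at 8.30, 7.40 and 8.68, higher by 1.28. The adhesion molecule CADM1 was at 7.48, 7.21 and 8.52, higher by 1.31 at its brighter probe and by 0.48 at the other. SLC1A3, a glial glutamate transporter, was at 10.07, 9.02 and 10.24, higher by 1.22 at its brighter probe, while its other probe was at 0.01. TXNIP, which restrains thioredoxin and glucose uptake, was at 10.64, 10.22 and 11.30, higher by 1.08.

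CYP1B1 and TIPARP, genes known as targets of the aryl hydrocarbon receptor, were also among the highest. CYP1B1, a cytochrome P450 that oxidizes steroids and polycyclic compounds, was at 12.32 in serum-free medium, 12.004 with IGF1 and 13.60 with IGF1+OSI906. It was higher by 1.59 or 3.02-fold, and its other probe by 1.58. TIPARP, an ADP-ribosyltransferase that represses the same receptor, was at 10.10, 10.03 and 11.36, higher by 1.33. In both genes the serum-free and IGF1 levels lay close together and the level with OSI906 above them. This order was not particular to these genes, as CADM1 at 7.48, 7.21 and 8.52 and CYB561A3 at 10.49, 10.21 and 11.78 had it too. Further genes tied to this receptor were chosen after these values were seen. AHR itself was at -0.32, NQO1 at 0.25 and the dim CYP1A1 and CYP1A2 at 0.19 and 0.11. None of these passed 0.5 in the main setting, and ALDH3A1 was not above background on both arrays. Over the processing alternatives AHR ranged from -0.33 to 0.22 and NQO1 from 0.21 to 0.29. CYP1A1 ranged from 0.06 to 1.36 and CYP1A2 from -0.009 to 0.69, so for these dim genes passing 0.5 depends on the processing.

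Among the 15 highest genes were also 3 of other kinds. ZNF295-AS1, an antisense RNA, was at 7.99, 7.51 and 9.38, higher by 1.87. CYB561A3, a lysosomal cytochrome b561 family member, was at 10.49, 10.21 and 11.78, higher by 1.57. The probe for RNA5-8SN5, a 5.8S ribosomal RNA gene that exists in many near-identical copies, was at 11.46, 11.17 and 13.03, higher by 1.86, and in U87WT by 3.32. Ribosomal RNA signal can also mark how RNA was handled, and its part in the other results was not tested. Outside the rule for named genes, the remaining genes past 1 without a marked spot included LAMA4, a laminin chain at 1.17, C1R, a complement protease at 1.02, NREP at 1.01 and FAM20C, a kinase of secreted proteins, at 1.01.

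Genes with lower signal under OSI906 included ID1, DEPP1 and the glucose transporter SLC2A1. ID1, a dominant-negative partner of basic helix-loop-helix factors that BMP signalling induces, was at 9.85 in serum-free medium, 10.87 with IGF1 and 9.56 with IGF1+OSI906. It was lower by 1.31, a difference of -1.31, so that the IGF1 array was the highest of the 3. Its relatives, chosen after that value was seen, had differences of -0.16 (ID2), -0.43 (ID3) and -0.03 (ID4, dim). DEPP1, a gene named for its induction by fasting and by progesterone, was at 8.01, 8.68 and 7.53, a difference of -1.15. SLC2A1, which encodes the transporter GLUT1, was at 10.03, 10.49 and 9.58, a difference of -0.92 that lay short of 1 and past 0.5. Its signal with OSI906 was 0.530 times that with IGF1. In U87WT SLC2A1 had the same order, at 9.72, 10.17 and 9.71, a difference of -0.46.

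Many of the other lowest genes had a like difference in U87WT on the same arrays. Neuropeptide receptors were among them: UTS2R, for urotensin, at -1.44 and GALR3, for galanin, at -1.14, with -1.37 and -1.22 in U87WT. UTS2R was at 12.59 in serum-free medium, 13.16 with IGF1 and 11.73 with IGF1+OSI906, and GALR3 at 12.77, 13.45 and 12.31. The cardiac homeobox gene NKX2-5 was at -1.08 and the mitochondrial iron-sulfur protein gene CISD3 at -1.07. The noncoding or readthrough transcripts AHI1-DT, LYNX1-SLURP2, PRRT3-AS1 and NFYC-AS1 were at -1.48, -1.23, -1.06 and -1.03, and LRRN4CL at -1.04. AHI1-DT rests on its brightest probe, as the mean over its member probes was -0.56. NKX2-5, for one, was at 14.18, 14.78 and 13.70 in U87Mut and at 14.27, 14.64 and 13.64 in U87WT, so the IGF1 array was the highest in both dyes. The part of the array in such values was not tested.

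A set of genes was picked for lipid synthesis, glucose uptake and the receptors, which were also studied by other assays. Of its 10 genes 9 were members, and SLC2A1 was the one past 0.5. DGAT1, which makes triglycerides, was at 8.68, 8.49 and 8.90, a difference of 0.41 at its brightest probe and 0.19 as the mean of its 3 probes, and PCYT1A, the rate-limiting enzyme of phosphatidylcholine synthesis, was at -0.30. FASN, the fatty acid synthase, was at 10.45, 9.94 and 9.88, a difference of -0.06, and the acyl-CoA synthetase ACSL5 was at -0.03. TBP, a common reference gene, was at 0.06. IGF1R was at 8.72, 8.71 and 8.42, a difference of -0.30, and INSR was at 8.53, 8.43 and 8.83, a difference of 0.40. The probe for IGF1 itself was near the lowest signal on the array at 6.09, 5.86 and 6.03, and IGF2 was not above background on both arrays.

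All 30 genes of a list of receptors, adaptors and PI3K-AKT-mTOR components were members. Of these 1 was higher and 0 lower by 0.5, against 1.93% and 1.13% of all named genes. The list had a median of -0.0009 and quartiles of -0.114 and 0.303, where the quartiles of all named genes were -0.106 and 0.125. The one past the limit was IRS1, the docking protein that links IGF1R to PI3K, higher by 0.97. It was at 8.14 in serum-free medium, 7.51 with IGF1 and 8.49 with IGF1+OSI906, and its dimmer probe was at 7.46, 7.14 and 7.63. RPTOR, the mTORC1 subunit, was at 0.42 and TSC2, which restrains mTOR, at 0.40, or at 0.09 at its dimmer probe. Of 10 ligands and binding proteins 6 were members and 0 passed 0.5, with IGFBP7 at 0.37 and IGFBP3 at -0.16. Among ERK feedback and immediate early genes, 3 of 27 members were higher and 0 lower by 0.5, against 1.93% and 1.13% of all named genes, with a median of 0.05. They were PHLDA1 at 0.78, the transcription factor EGR1 at 0.77 and IER3 at 0.55. The levels were 10.63, 10.01 and 10.79 for PHLDA1 and 7.43, 7.12 and 7.89 for EGR1, with the IGF1 array the lowest of the 3. The ERK phosphatases DUSP5 and DUSP6 were at -0.44 and -0.15, and the feedback inhibitor SPRY2 at 0.49.

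FOXO factors and genes known to be induced by them had a median of 0.11 over 25 of 29 members, or 0.23 above that of all named genes with the processed signals, with 20 above 0 where 51.4% of all named genes were. Of the 25, 2 were higher and 1 lower by 0.5, against 1.93% and 1.13% of all named genes. Higher were TXNIP and the mitochondrial superoxide dismutase SOD2, the latter at 0.63, and DEPP1 was lower. INSR was at 0.40, the CDK inhibitor CDKN1A at 0.48, IRS2 at 0.31 and KLHL24 at 0.35, short of the limit. The promoters of TXNIP and DEPP1 are shown because both hold a forkhead motif while the genes passed 1 in opposite directions. They are again the 250 bases before the start on GRCh38.p14, both on the minus strand, TXNIP at chr1:145996580-145996829 and DEPP1 at chr10:44978810-44979059, with GTAAACA, searched on either strand, in capitals.
TXNIP: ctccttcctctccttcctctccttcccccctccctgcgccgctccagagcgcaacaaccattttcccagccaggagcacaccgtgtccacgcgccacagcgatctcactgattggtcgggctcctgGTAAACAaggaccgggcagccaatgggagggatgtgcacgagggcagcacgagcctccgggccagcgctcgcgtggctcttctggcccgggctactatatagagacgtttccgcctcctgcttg
DEPP1: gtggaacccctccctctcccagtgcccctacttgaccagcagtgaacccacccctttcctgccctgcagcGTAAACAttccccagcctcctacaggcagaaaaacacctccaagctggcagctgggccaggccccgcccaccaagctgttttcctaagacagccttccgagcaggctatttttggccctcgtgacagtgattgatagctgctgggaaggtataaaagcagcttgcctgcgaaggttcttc
The match begins 124 bases before the start in TXNIP and 180 in DEPP1. In the 300-base window, 4 of 21 list members with a promoter sequence held it, 19.0%, and so did 3.41% of all promoters, and the members with a match were FOXO4, TXNIP, BCL2L11 and DEPP1. The list was drawn up with genes known to be induced by FOXO, so this share does not bear on the inhibitor. The median difference was 0.14 with a match and 0.22 without.

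Genes of glucose use and of the response to low oxygen were lower at their extremes. Of 23 glycolysis and lactate export members, 0 were higher and 2 lower by 0.5, against 1.93% and 1.13% of all named genes. The 2 were SLC2A1 and the lactate exporter SLC16A3 at -0.77, and the median of the list was -0.06. The enolase ENO2 was at -0.49 and PFKFB4 at -0.36, while PFKL was at 0.41 and PKM at 0.32. Of 18 hypoxia-induced members, 13 lay below 0 where 48.1% of all named genes did, 2 were lower by 0.5, and the median was -0.16. NDRG1, a stress and differentiation gene, was at 13.41, 13.98 and 13.20, a difference of -0.78. PDK1, the kinase that shuts off pyruvate dehydrogenase, was at 9.07, 9.37 and 8.86, a difference of -0.51. SLC16A3 was at 11.10, 11.34 and 10.58, so that these genes too were highest on the IGF1 array and lowest with the inhibitor. ANKRD37 was at -0.45, the mitophagy receptor BNIP3 at -0.41 and the mTOR inhibitor DDIT4 at -0.34 ± 0.10 (SD, 10 spots). MIR210HG, the host gene of the hypoxia-induced microRNA 210, was chosen after its values were seen. It was at 7.62, 7.90 and 6.97, a difference of -0.93.

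Mitochondrial genes showed a few higher members. Of 32 members of the TCA cycle and pyruvate dehydrogenase list, 3 were higher and 1 lower by 0.5, against 1.93% and 1.13% of all named genes, with a median of 0.12. IDH2, the mitochondrial NADP-linked isocitrate dehydrogenase, was at 9.15, 8.66 and 9.53, higher by 0.87, pyruvate carboxylase (PC) by 0.61 and the pyruvate dehydrogenase phosphatase PDP1 by 0.52. The respiratory complexes and ATP synthase had a median of 0.03 over 70 members, and 1, the catalytic subunit gene ATP5F1B, was higher by 0.55.

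Lipid synthesis genes mostly lay within 0.5 of 0, and those of cholesterol leaned low. Of all named genes 1.93% were higher and 1.13% lower by 0.5. Of 24 cholesterol synthesis and uptake members, 0 passed 0.5 in either direction, but 18 lay below 0, where 48.1% of all named genes did. The median was -0.08, with mevalonate kinase (MVK) at -0.46 and IDI1 at -0.29. In U87WT 22 of the 24 lay below 0, where 51.6% of named genes did, and 6 were lower by 0.5, against 2.59% of probes. Of 19 fatty acid synthesis members, 1 passed, the stearoyl-CoA desaturase SCD, which makes oleate, at 9.33, 8.94 and 9.69, higher by 0.75. The elongase ELOVL6 was at -0.35. Of 31 glycerolipid and phospholipid members, 1 passed, the glycerol-phosphate acyltransferase GPAT3 at 0.55, with DGAT2 at 0.44 and LPCAT3 at 0.42.

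Cell cycle genes leaned low by small amounts. DNA replication genes had the lowest median of the 22 lists, -0.26 over 45 members, and 37 of them lay below 0, where 48.1% of all named genes did. Lower by 0.5 was 1 of the 45, against 1.13% of all named genes. That was MCM5, a subunit of the replicative helicase, at 10.69, 10.87 and 10.34, a difference of -0.53 at its brighter probe, with 9.50, 9.70 and 9.52 at the other. Below 0 but short of the limit lay MCM7 at -0.46 (0.10 at its dim other probe), thymidine kinase TK1 at -0.46 and the licensing factor CDT1 at -0.44. The origin subunit ORC6 was at -0.34 ± 0.11 (SD, 10 spots). On the other side, the polymerase delta subunit POLD2 was at 0.28. Of 40 mitosis members, 35 lay below 0, against 48.1% of all named genes, and 0 passed 0.5, with a median of -0.16. CDCA8 was at -0.41, the spindle protein PRC1 at -0.38, CDC20 at -0.38 and survivin (BIRC5) at -0.37 ± 0.05 (SD, 10 spots), whereas CDK1 was at -0.12 ± 0.05 (SD, 10 spots). In this bulk RNA fewer cells in a phase and less RNA per cell cannot be told apart. Genes induced by p53 had a median of -0.03 over 16 members, with FAS at 0.498 and MDM2 at -0.27 at their brightest probes, and 0 passed 0.5.

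Genes of protein synthesis and amino acid supply varied in both directions. By the limit of 0.5, 1.93% of all named genes were higher and 1.13% lower. Ribosome biogenesis genes had a median of -0.09 over 30 members, with 21 below 0, where 48.1% of all named genes were, and MYBBP1A at -0.497. Cytosolic ribosomal protein genes had a median of 0.08 over 77 members, which relative to all named genes was 0.0762 and with loess -0.0228. Of the 77, 0 were lower and 3 higher by 0.5, namely RPL13, RPLP0 and RPL6 at 0.57, 0.53 and 0.52. These values rest on 1 very bright probe each, as the other probes were at -0.11, 0.10 and 0.18. With loess in place of quantile normalization they were 0.17, 0.28 and 0.09. ATF4 and amino acid genes had a median of 0.008 over 31 members. By 0.5, 1 was higher, STC2, and 1 lower, the glutamine and alanine transporter SLC38A2. The latter was at -0.66, or at -0.40 as the mean of its probes. The ATF4 targets TRIB3 and ATF5 were at -0.34 and -0.44, while PCK2, PHGDH and ATF3 of the same list were at 0.33, 0.32 and 0.32. Of the 31 members 16 lay above 0 and 15 below. Of 20 aminoacyl-tRNA synthetases, 2 were higher and 0 lower by 0.5, with a median of 0.02. The 2 were WARS1 at 0.59 and AARS1 at 0.51.

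Matrix and lysosome genes leaned high. Of 30 extracellular matrix and protease members, 6 were higher and 1 lower by 0.5, against 1.93% and 1.13% of all named genes, with a median of 0.21. The proteoglycan genes DCN, VCAN and LUM were higher by 0.79, 0.71 and 0.69, SPARC, a collagen-binding glycoprotein, by 0.69, the collagen VI chain COL6A2 by 0.52 (0.01 at its other probe) and fibronectin (FN1) by 0.50. Tenascin C (TNC), a matrix glycoprotein abundant in gliomas, was at 10.89, 11.50 and 10.68, lower at -0.82. DCN was at 7.28, 6.76 and 7.55 and SPARC at 12.50, 11.88 and 12.57, in the opposite order. Of 34 lysosome and autophagy members, 25 lay above 0, where 51.4% of all named genes did, and the median was 0.17. Higher by 0.5 was 1, cathepsin L (CTSL) at 0.53, against 1.93% of all named genes. The peptidase TPP1 was at 0.47, with -0.18 at its other probe, and the cholesterol carrier NPC1 at 0.41 ± 0.11 (SD, 10 spots). Interferon-stimulated and antigen presentation genes had a median of 0.10 over 27 members with 0 past 0.5, among them HLA-B at 0.40 and B2M at 0.37 at its brightest probe.

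Further promoter motifs were searched on both strands in the lists, without a printed sequence. These lists too were drawn up by known function, so the shares do not bear on the inhibitor. The sterol response element TCACCCCAC was in 1 of 18 cholesterol promoters, 5.56% against 0.425% of all, that of SREBF2. The E-box CACGTG was in 8 of 23 lysosome promoters, 34.8% against 7.43%, and the median difference was 0.13 with and 0.18 without it. The C/EBP-ATF element TGATGCAA was in 1 of 24 ATF4-list promoters, that of CHAC1, 4.17% against 0.923%.

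The same inhibitor step in U87WT was measured on the same arrays in the other dye, so the clones share arrays but not RNA, and the differences between them were not tested. On 28081 U87Mut members also well above background in Cy5 on both arrays, 33 were higher and 27 lower by 1 in U87Mut, 0.118% and 0.0962%, against 156 and 79 in U87WT, 0.556% and 0.281%. Of the 33, 27 were also higher by 1 in U87WT and 33 above 0. Of the 27, 14 were also lower by 1 and 26 below 0. Across these probes, which are not independent, Pearson's r between the clones was 0.553 and Spearman's rho 0.367, and Pearson's r was 0.466 on the 27780 probes without a marked spot. The SD of the difference was 0.235 in U87Mut and 0.30 in U87WT.

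Several higher genes had similar values in both clones and others did not. CYP1B1 was at 1.54 in U87WT, STC2 at 1.70, TIPARP at 1.38 and CHI3L1 at 1.25. The cytokine list had a median of 1.31 in U87WT, where 14 of its 15 members were higher by 0.5, against 0.43 and 6 in U87Mut. Of the probes as a whole, 4.1% were higher and 2.59% lower by 0.5 in U87WT. CXCL2 was at 1.80 in U87WT and IL6 at 1.41, and TXNIP at 2.73, all above their U87Mut values. LXN was at 0.47 and SLC1A3 at 0.55 in U87WT, below theirs.

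Some genes passed the limit in U87Mut while U87WT lay near 0. ID1 went from 9.20 with IGF1 to 9.17 with IGF1+OSI906 in U87WT, a difference of -0.02, and DEPP1 was at 0.09, NDRG1 at -0.0006, SLC16A3 at 0.11 and SCD at 0.04. The next count covers 8416 genes above the median brightness of the members, without a marked spot. They were above background in both dyes, with probes on 1 side of 0. Of these, 249 were higher and 134 lower by 0.5 in U87Mut, of which 42 and 34 were within 0.25 of 0 in U87WT. The share of the 8416 within 0.25 of 0 in U87WT was not computed. Over all named genes the U87WT quartiles were -0.156 and 0.139, so most of them lay within 0.25 of 0. The hypoxia list had a median of 0.005 in U87WT, with 4 members higher and 0 lower by 0.5. The reverse was seen for TOP2A, the topoisomerase of dividing cells, at 0.05 in U87Mut and -1.73 in U87WT. It is 1 example, and more probes passed 0.5 in U87WT than in U87Mut. On the 28081 shared probes, 1151 were higher and 728 lower by 0.5 in U87WT, against 409 and 298 in U87Mut. Of the 409 and the 298, 239 and 134 passed the limit in the same direction in U87WT. No named gene passed 1 in opposite directions in the clones, that is 0 of these genes.

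Probes well above background on only 1 of the compared arrays are not members and allow only a bound. The bound sets the measured signal against the higher of the probe's own signal on the other array and the lowest signal there among probes well above background. There were 2727 such probes with IGF1+OSI906 only, of which 0 had a bound of 1 and 4 of 0.5, and 1392 with IGF1 only, of which 10 had a bound of 1 and 20 of 0.5. Without probes with a spot marked not uniform these were 0 and 3, and 8 and 18, and the highest bound with IGF1 only went from 11.2 to 2.0. The highest bounds of named genes with the inhibitor only were at the probes of MTAP, of methionine salvage, at least 1.41-fold, and LINC02361 and MORN5, at least 1.38-fold and 1.33-fold. All were dim with IGF1+OSI906, at 6.41, 6.37 and 6.37. MTAP was at 5.86 in serum-free medium and 5.91 with IGF1, where the lowest signal well above background was 5.86. In U87WT its difference was 0.09. With IGF1 only, FCER2, the low-affinity IgE receptor, was at least 3.02-fold lower with the inhibitor, BPIFB4 at least 2.78-fold, DEPDC1-AS1 at least 2.69-fold and the protocadherin PCDH17 at least 2.35-fold lower. FCER2 was at 5.91 in serum-free medium, 7.45 with IGF1 and 5.81 with IGF1+OSI906.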

How the data were processed

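RNA of U87WT 5 (Cy5) and U87Mut 5 (Cy3) was hybridized together on 3 arrays, 1 per condition. The authors deposited scanner intensity values per spot, which per the file headers were made by Agilent Feature Extraction 12.0.3.1 without normalization between arrays, and 3 columns of log2 ratios between the clones, which were not used. Median spot and background intensities were background-corrected by normexp (limma 3.58.1 under R 4.3.3, files read by version 1.17.8 of data.table) with an offset of 50, fitted without spots marked not uniform, and all 6 channels were quantile-normalized on the log2 scale. The offset pulls differences of dim probes toward 0. Of 62976 spots per array, 2075 control spots and those marked as outliers were left out, and repeated spots of 1 probe entered as their mean. The arrays limit the precision: with 1 per condition no test was run.

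Of 36770 probes with a RefSeq transcript, 34892 were named through it (RefSeq genes, GRCh38.p14). Named genes are the 15 highest and 15 lowest whose brightest probe is above the members' median brightness and whose member probes lie on 1 side of 0, genes the study measured otherwise, up to 4 genes each way of each list, up to 3 each way past 1 in opposite directions in the clones, and up to 5 each way above background on 1 array only. Any other gene named, such as further list members and genes with several spots, was chosen after its values were seen. Some genes that the rule names are not reported here. Members, lists and limits were chosen with earlier results of these data known. Promoters are RefSeq sequences on GRCh38.p14, from 250 bases before to 50 after the start. Tables were made with Python 3.11.15, pandas 2.3.3 and numpy 2.4.6. The steps were tested on simulated data for this comparison with 28565 probes: of 50 probes each set to a log2 of 1, 1.5, 2 and -2, 8, 35, 43 and 30 were called, measured at 0.73, 1.16, 1.51 and -1.18 in the mean, and 0 others were called.

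Alternatives were another offset, no background correction, a fit on all spots, the processed signals, other normalizations, other limits and filters, outlier spots kept, a gene's mean over its probes and, chosen after the data were seen, leaving out probes with a spot marked not uniform.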

Additional observations from a re-analysis of the deposited data

Results flagged for a closer look

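CCNK, which encodes a cyclin partner of the kinases that act on elongating RNA polymerase, moved in opposite directions in the clones. Its level was 9.80 in serum-free medium, 10.59 with IGF1 and 10.00 with IGF1+OSI906 in U87Mut, a difference of -0.59, and 10.27, 9.94 and 10.61 in U87WT, a difference of 0.67. The difference between the clones was not tested, and the other member probe of the gene was at -0.06 in U87Mut.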

How the results depend on the processing

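With 1 array per condition no replicate could be left out, and depth limits read here as signal over background: 28565 of 58201 probes could be compared. No paired analysis was possible because each condition has 1 array and no test was run. The 34 probes higher and 28 lower by 1 became 61 and 39 with an offset of 20, 59 and 43 without background correction, and 322 and 111 with the processed signals, which kept 30 of the 34 and all 28 of the 28. With the 75th percentile in place of quantile normalization there were 36 and 17. The share of calls that were higher was 54.8% in the main setting, 74.4% with the processed signals and 67.9% with the 75th percentile. Limits of 0.5 and 1.5 gave 411 and 299, and 11 and 5, and distinct genes gave 30 and 18. The median of the cytokine list minus that of all named genes, 0.43, was 0.62 with an offset of 20, 0.67 without background correction and 0.80 with the processed signals. That of the FOXO list, 0.11, was 0.20 and 0.23 with the latter settings, that of the matrix list, 0.20, was 0.35 with the processed signals, that of IGF ligands, 0.09, was -0.0415 with the 75th percentile, and that of ribosomal proteins, 0.08, was -0.0228 with loess. The cause of these shifts was not tested. IL1B ranged from 2.18 to 2.50, CYP1B1 from 1.49 to 1.60, SLC2A1 from -0.94 to -0.82 and ID1 from -1.35 to -1.21 over the alternatives. The processed signals gave 1.89 for CCL2, 1.42 for DCN, 1.22 for LUM and -1.46 for MIR210HG, the mean of all probes 0.61 for SLC1A3. Leaving out probes with a marked spot gave 31 and 24.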
